A study of Mus musculus with 8 samples.

Results

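The miR-26 family of the mouse has 3 genes, Mir26b, Mir26a-1 and Mir26a-2. They were taken by name from 2 deposited count tables of small RNA, in which they are 3 of 2202 miRNA features. The libraries come from spleen B cells of Ago2HA/HA mice, in which the Argonaute protein AGO2 carries an HA epitope. All 8 libraries, the inputs included, are from cells of this genotype. The groups are proliferating B cells, anti-HA immunoprecipitate (IP), then proliferating B cells, input RNA, then resting B cells, IP, and resting B cells, input RNA, with 2 libraries in each and 8 in all. B cells were obtained by negative selection with CD43 reagents, and the proliferating ones had been activated in culture. The labels give neither the activating agent nor the strain, age or number of mice. They state that the IP from cells lacking the epitope yielded no RNA, and that no library was made of it. Each IP is therefore set against input RNA alone.

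MicroRNAs are short RNAs cut from hairpin precursors and loaded into Argonaute proteins, which they guide to complementary sites in mRNAs. The miR-26 genes lie in introns of the genes for small phosphatases of the RNA polymerase II tail (Ctdsp1, Ctdspl and Ctdsp2) and are made together with these hosts. miR-26 is known to restrain proliferation, with Ezh2 and Lin28b among its described targets, and in B cell lymphoma models MYC is known to lower it together with let-7, miR-29, miR-30 and miR-150.

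All 3 genes are on the forward strand of the mm10 assembly. Mir26b (ENSMUSG00000065468.1) spans chr1:74394310-74394394 within Ctdsp1, a small phosphatase gene. Mir26a-1 (ENSMUSG00000065513.1) spans chr9:119031796-119031885 within Ctdspl, and Mir26a-2 (ENSMUSG00000065430.1) spans chr10:126995530-126995613 within Ctdsp2. No other feature of the tables overlaps any of them. The hairpins and mature miRNAs below are from RefSeq (GRCm38.p6), in which all 3 genes were found. The hairpins are shown, 5′ to 3′, because each feature counts reads of its whole hairpin, and capitals mark the 5p arm, from which the main mature miRNA is cut.
Mir26b: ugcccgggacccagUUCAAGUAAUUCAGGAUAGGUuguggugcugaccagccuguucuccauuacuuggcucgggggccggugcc
Mir26a-1: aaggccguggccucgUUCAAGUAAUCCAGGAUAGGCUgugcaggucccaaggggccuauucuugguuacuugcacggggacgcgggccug
Mir26a-2: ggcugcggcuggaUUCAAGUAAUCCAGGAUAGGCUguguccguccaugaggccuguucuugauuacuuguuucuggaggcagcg

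The mature 5p miRNAs are shown with the seed, bases 2 to 8, in capitals, because the seed is the part that pairs with targets.
mmu-miR-26b-5p: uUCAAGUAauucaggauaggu
mmu-miR-26a-5p: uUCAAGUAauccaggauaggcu
Both have the same seed, and no mature miRNA of another gene in the RefSeq table has it. Counted from 1 at the 5′ end, with the base of miR-26a-5p first, they differ at C11U and C21U, 2 of the 21 positions compared. A target site complementary to this seed reads uacuuga.

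The 5p arm is the same in Mir26a-1 and Mir26a-2. The longest run of bases that both hairpins share has 25 bases and starts at the first base of the arm.
Run shared by Mir26a-1 and Mir26a-2: uucaaguaauccaggauaggcugug
A read that lies within this run has no single place of origin, whereas the longest run that Mir26b shares has 11 bases with Mir26a-1 and 10 with Mir26a-2. The 3p arms tell the copies apart, and miR-26a-1-3p and miR-26a-2-3p differ at 6 of 22 positions. How reads with several matching places were counted is not given in the sources used here. Of 1013 features with a mature sequence in RefSeq, 94 share one with another feature, and these 94 held from 2.24% to 8.44% of the counts of a library. No expected share is at hand, so this range does not tell whether shared reads were left out. With the counting rule not given, the counts of Mir26a-1 and Mir26a-2 may leave out reads of miR-26a-5p. Their levels are not compared with that of Mir26b as amounts of the 2 miRNAs.

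Library totals ran from 213418 to 1681148 counts, and 219 features passed the filter on low counts. Across these features the 2 libraries of a group correlated with r from 0.960 to 0.981 in log2 CPM, where CPM is a feature's count scaled to a common library size. Whether the 2 libraries of a group come from separate mice is not stated. The spread behind each p-value comes from differences between these libraries, for the most part shared over all tested features, and may be technical. Of 6 miRNAs listed for B cells, 5 were tested and Mir142 was listed at 0 in every library. The summed CPM of this list was 225820 and 231128 in the proliferating IP, 181425 and 180250 in the proliferating input, 285966 and 281760 in the resting IP, and 384367 and 349249 in the resting input. Mir150 alone gave 308628 of the 384367 CPM in resting input replicate 1. In both the IP and the input, Mir155 was called higher and Mir150 lower in proliferating cells. The sum therefore mixes members that move in opposite directions between the states and does not measure the content of B cells. In bulk RNA, fewer cells of a type and less RNA per cell cannot be told apart.

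Mir26b was among the most abundant miRNA genes of these B cells. It held 1.77% and 1.83% of the counts in the proliferating IPs, 2.41% and 2.50% in the proliferating inputs, 8.76% and 7.67% in the resting IPs, and 2.63% and 2.95% in the resting inputs. Exact (Clopper-Pearson) 95% intervals, which cover counting error only, ran from 1.74% to 1.80% in proliferating IP replicate 1 and from 8.72% to 8.80% in resting IP replicate 1, narrower in both cases than the gap between the 2 libraries of the resting IP. By count Mir26b ranked 10 and 9 in the proliferating IPs, 11 in both proliferating inputs, 3 and 5 in the resting IPs, and 11 and 10 in the resting inputs. The resting IPs thus stand above all other libraries in both share and rank. Together the 3 miR-26 features held 1.80% ± 0.0417 of the proliferating IP, 2.46% ± 0.0679 of the proliferating input, 8.26% ± 0.773 of the resting IP and 2.80% ± 0.224 of the resting input (mean ± SD, n = 2 each). Mir26b gave from 99.3% to 99.8% of these counts.

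**Figure D1:**
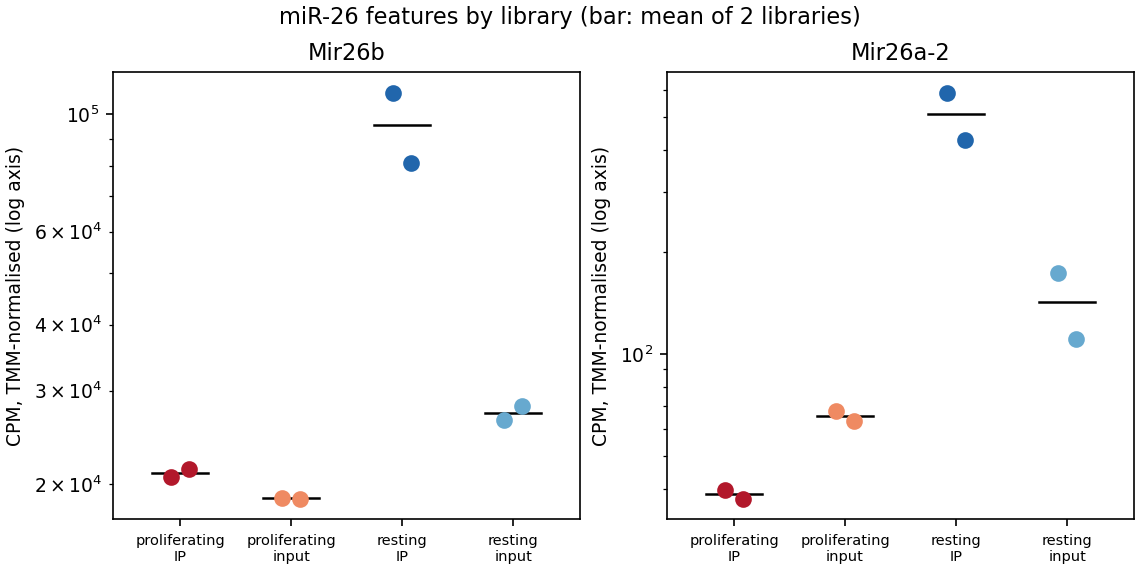
CPM of Mir26b and Mir26a-2 in each of the 8 libraries (points, log axis), normalised with TMM factors, with the mean of each group of 2 as a bar. Both genes are highest in the 2 resting IP libraries, at 81068 to 109957 CPM for Mir26b and 427 to 591 CPM for Mir26a-2.

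The first question is which miRNAs are over-represented with AGO2 in resting cells. Mir26b had 109957 and 81068 CPM in the resting IPs, against 26414 and 28026 CPM in the resting inputs. Both IP libraries lie above both inputs, and the gap is larger than the spread within either group. The mean was 95513 ± 20428 CPM in the IP and 27220 ± 1139 CPM in the input, a 3.51-fold rise (log2 fold change 1.81, SE 0.23, edgeR quasi-likelihood test, adjusted p = 8.3e-08). Mir26a-2 had 591 and 427 CPM in the resting IPs, against 174 and 111 CPM in the resting inputs. It rose 3.59-fold (log2 fold change 1.84, SE 0.42, edgeR adjusted p = 6.3e-04). Both tested miR-26 features therefore rose in the resting IP, where 13.2% of all 219 tested features rose, 15.5% fell and 28.8% were called in either direction. In order of log2 fold change from the highest, Mir26a-2 was at 19 and Mir26b at 21 of 219, and the median over all tested features was -0.05.

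The same comparison was made in proliferating cells. Mir26b had 20572 and 21329 CPM in the proliferating IPs, against 18782 and 18748 CPM in the proliferating inputs. The values of the groups do not overlap, but the difference was small, and it did not pass the test (log2 fold change 0.16, 95% interval -0.30 to 0.62, edgeR adjusted p = 0.64). The interval does not include the 1.81 measured in resting cells. Mir26a-2 had 39.5 and 37.3 CPM in the proliferating IPs, from 27 and 44 counts, against 67.8 and 63.2 CPM in the proliferating inputs, from 24 and 18 counts. Its log2 fold change was -0.77 (95% interval -1.72 to 0.18, edgeR adjusted p = 0.25). Neither tested miR-26 feature passed, where 26.9% of all tested features did in one direction or the other. The sign for Mir26b depends on the scaling. With library totals in place of TMM factors its log2 fold change was -0.45 (edgeR adjusted p = 0.057), and that of Mir26a-2 was -1.38 and passed (edgeR adjusted p = 0.020), while the median over all features moved by -0.61.

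Whether the 2 cell states differ in this enrichment was tested directly, as the IP to input change in proliferating cells minus that in resting cells. The difference was -1.65 on the log2 scale for Mir26b (SE 0.32, 95% interval -2.30 to -1.001, edgeR adjusted p = 2.8e-04). For Mir26a-2 it was -2.61 (SE 0.63, 95% interval -3.89 to -1.34, edgeR adjusted p = 0.0031). Enrichment of both tested miR-26 features with AGO2 was thus lower in proliferating than in resting cells, a call made for 7.76% of all tested features, against 9.59% called higher and 17.4% in either direction. In order from the lowest difference, Mir26a-2 was at 21 and Mir26b at 37 of 219. Both differences passed under every alternative that could be fitted, from -2.21 to -1.29 for Mir26b and from -3.43 to -2.23 for Mir26a-2.

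**Figure D2:**
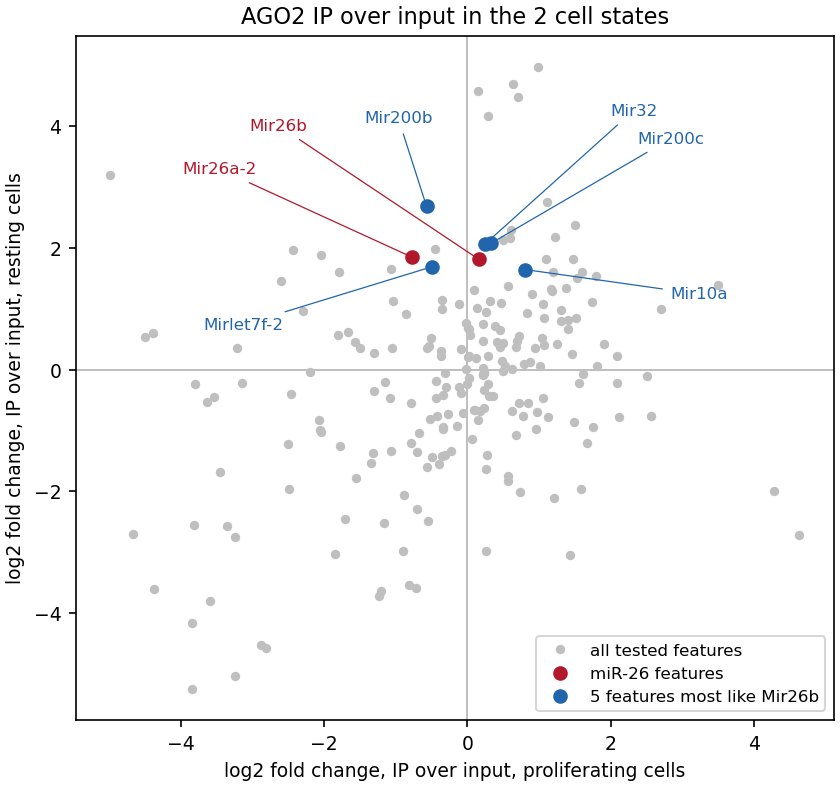
Log2 fold change of IP over input in proliferating cells (horizontal) and in resting cells (vertical) for the 219 tested features, with the miR-26 features in red and the 5 features most like Mir26b in blue. Mir26b lies at 0.16 and 1.81 and Mir26a-2 at -0.77 and 1.84, so both are high on the vertical axis and near the middle of the horizontal one.

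Proliferating and resting cells were then compared within the IP, that is, in the RNA bound to AGO2. The mean of Mir26b was 20951 ± 535 CPM in the proliferating IP and 95513 ± 20428 CPM in the resting IP (SD, n = 2 each). It fell by 2.19 on the log2 scale (SE 0.24, edgeR adjusted p = 2.8e-10), which is 4.56-fold lower in proliferating cells. Mir26a-2 averaged 38.4 ± 1.54 CPM in the proliferating IP and 509 ± 116 CPM in the resting IP. It fell by 3.73 (SE 0.46, edgeR adjusted p = 5.9e-09), or 13.2-fold, and was at 10 of 219 in order from the lowest log2 fold change. Both tested miR-26 features fell, where 23.7% of all tested features fell, 28.3% rose and 52.1% were called in either direction. The 2 tables were deposited separately, one for each cell state, so cell state and table cannot be told apart here or in the input.

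In the input, before AGO2 is selected, the same difference was smaller. Mir26b averaged 18765 ± 24.2 CPM in the proliferating input and 27220 ± 1139 CPM in the resting input (SD, n = 2 each), and the libraries of the groups do not overlap. It fell by 0.54 on the log2 scale (SE 0.23, 95% interval -0.995 to -0.08, edgeR adjusted p = 0.048). Mir26a-2 had 67.8 and 63.2 CPM in the proliferating inputs, against 174 and 111 CPM in the resting inputs, and fell by 1.11 (SE 0.46, edgeR adjusted p = 0.044). In this comparison 23.3% of all tested features fell, 26% rose and 49.3% were called in either direction. Both calls are near the threshold. With library totals the log2 fold change of Mir26b was -0.18 (edgeR adjusted p = 0.40) and that of Mir26a-2 was -0.75 (edgeR adjusted p = 0.12), and Mir26b did not pass without any 1 of the 4 input libraries (-0.59 to -0.40, edgeR adjusted p from 0.11 to 0.24).

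In order of mean CPM, Mir26b was highest in the resting IP, then in the resting input, the proliferating IP and the proliferating input. The last 2 did not pass the test against each other, and the resting input was not tested against the proliferating IP. For Mir26a-2 the order was resting IP, resting input, proliferating input and proliferating IP, where again the last 2 did not pass.

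**Figure D3:**
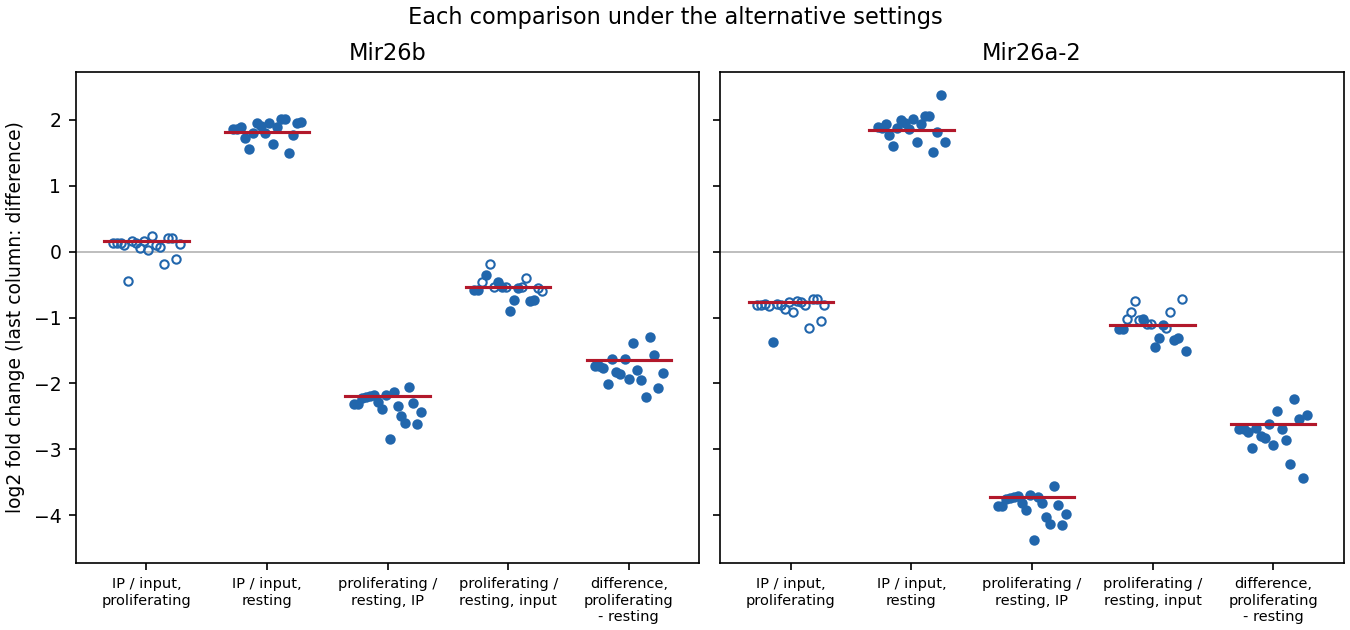
Log2 fold changes of Mir26b and Mir26a-2 in the 4 comparisons, and the difference between cell states, as reported (red line) and under each alternative setting (points, filled where the adjusted p was under 0.05 and open where it was not). The resting IP to input change, the fall in the proliferating IP and the difference keep their sign and pass at every point, while the proliferating IP to input change crosses 0 for Mir26b.

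The miR-26a genes contributed few counts. Mir26a-1 had 1 and 0 counts in the proliferating IPs, 0 and 1 in the proliferating inputs, 9 and 0 in the resting IPs, and 1 and 2 in the resting inputs, 14 in all. It was not tested. Its 9 counts in resting IP replicate 1 are a share of 0.000535% (exact 95% interval 0.000245% to 0.00102%), and the 0 of 788869 counts in replicate 2 has an exact 95% upper bound of 0.000468%, so the intervals overlap. Mir26a-2 had 1330 counts over all libraries, 791 of them in resting IP replicate 1. The count of Mir26b divided by that of both miR-26a features was 502 and 571 in the proliferating IPs, 277 and 281 in the proliferating inputs, 184 and 190 in the resting IPs, and 150 and 243 in the resting inputs. The proliferating IPs thus have the highest ratio and do not overlap the other groups, and the resting libraries have the lowest. This ratio needs no scaling between libraries, but the proliferating libraries rest on 19 to 44 miR-26a counts each. Reads of miR-26a-5p may be missing from the miR-26a counts. The ratio is therefore one of feature counts, and neither it nor its differences between groups compare the amounts of the 2 miRNAs.

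The features whose log2 CPM over the 8 libraries followed that of Mir26b most closely, among 113 others with a mean of at least 100 CPM, were Mir200b (r = 0.97), Mirlet7f-2 (r = 0.95), Mir32 (r = 0.95), Mir10a (r = 0.94) and Mir200c (r = 0.93). These r are a description over 8 libraries in 4 groups that share library preparation and scaling, and all 5 features are highest in the 2 resting IPs. The 5 were picked by this likeness, so their own changes largely follow from the choice and give no separate support. Mir200b reached 100 CPM on average only through the resting IP, at 359 CPM there against 21.7 to 55.6 CPM in the other groups. For comparison, Mir26a-2 had r = 0.93 with Mir26b. Mir200b and Mir200c belong to the miR-200 family, typical of epithelial cells, Mirlet7f-2 is a let-7 gene, Mir32 has the seed of miR-92a, and Mir10a lies in the Hoxb cluster. Mirlet7f-2 had 9155 and 7921 CPM in the resting IPs, against 2764 and 2533 CPM in the resting inputs. Its log2 fold change of IP over input was -0.49 in proliferating cells (edgeR adjusted p = 0.21) and 1.69 in resting cells (edgeR adjusted p = 6.0e-06). Mir10a differed from Mir26b in one respect. It rose in the proliferating IP as well (log2 fold change 0.80, edgeR adjusted p = 0.039), and its difference between cell states did not pass (-0.84, edgeR adjusted p = 0.18). For Mir200b, Mirlet7f-2, Mir32 and Mir200c the difference between cell states was -3.25, -2.18, -1.81 and -1.74.

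**Figure D4:**
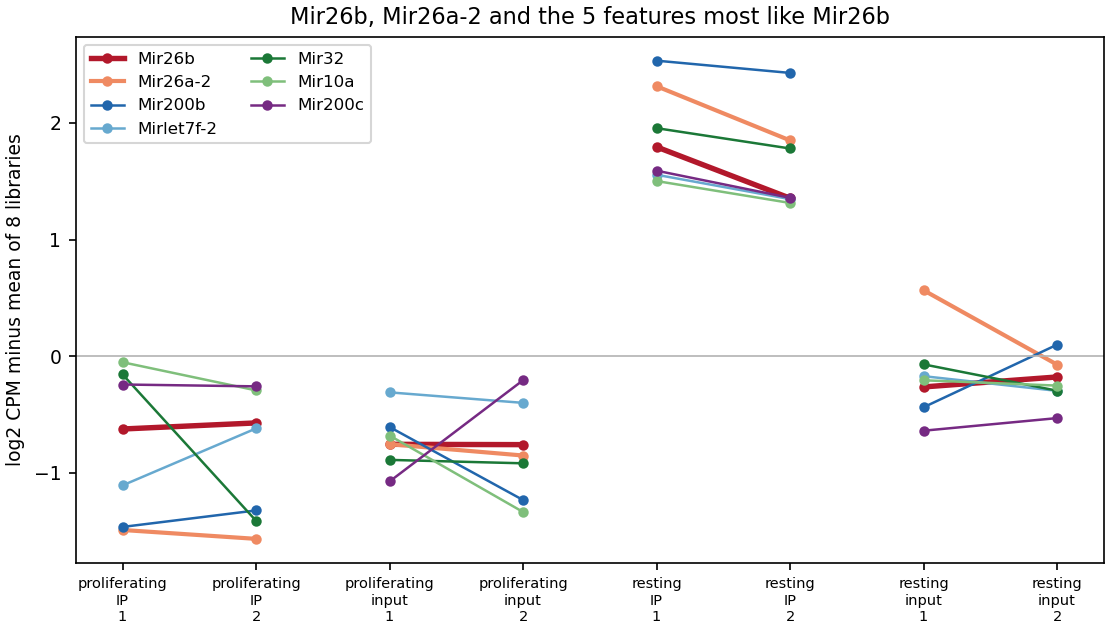
Log2 CPM minus the mean of the 8 libraries for Mir26b, Mir26a-2 and the 5 features most like Mir26b, by library, with lines joining the 2 libraries of a group. All 7 are highest in the resting IPs, and Mir26b (thick red) differs little between its 2 libraries in the other 3 groups.

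The other miRNAs described as lowered by MYC form a list of 31 genes, of which 29 were found by name and 25 tested. In the IP 14 of the 25 fell in proliferating cells, 4 rose and 7 did not pass, beside 23.7% of all tested features that fell and 28.3% that rose, with a median log2 fold change of -1.41, against 0.21 over all tested features. In the input 9 fell, 4 rose and 12 did not pass, beside 23.3% and 26% of all tested features, with a median of -0.60, against 0.04 over all. Under 4 other scalings 14 to 18 fell and 3 to 4 rose in the IP, while in the input 7 to 10 fell and 2 to 6 rose, with medians from -1.01 to -0.28. Among the most abundant members, Mir150, which is known to restrain Myb, fell by 2.77 in the IP (edgeR adjusted p = 2.4e-12) and by 3.54 in the input (edgeR adjusted p = 4.9e-15). Mir29a fell in both (log2 fold change -1.27 in the IP and -2.22 in the input), and so did Mir30d (-2.26 and -1.64). Mirlet7i fell by 1.67 in the IP, as Mir26b did, but rose by 0.60 in the input (edgeR adjusted p = 0.043). Mirlet7d fell by 0.68 in the IP and was at 0.50 in the input (edgeR adjusted p = 0.11). The members that rose in the IP were Mir98, Mir23a, Mir23b and Mir34a, and in the input Mir98, Mir34a, Mirlet7a-2 and Mirlet7i. These were named after their values were seen, and Mir34a is known as a target of p53.

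The 5 abundant members differed among themselves in their IP to input changes. In resting cells Mir150 was lower in the IP (log2 fold change -0.66, edgeR adjusted p = 0.026) and so was Mir29a (-1.44, edgeR adjusted p = 3.9e-05), while Mirlet7d rose (1.07, edgeR adjusted p = 0.0017), as Mir26b did. In proliferating cells Mirlet7i (-1.66, edgeR adjusted p = 1.9e-06) and Mir30d (-1.08, edgeR adjusted p = 0.0018) fell in the IP, and Mirlet7d did not pass (-0.11, edgeR adjusted p = 0.77). Over the list, 5 of 25 rose and 5 fell in the resting IP, beside 13.2% and 15.5% of all tested features. In the proliferating IP 3 rose and 7 fell, beside 13.2% and 13.7% of all tested features, and 16 fell with library totals. The difference between cell states was lower for 6 of the 25 and higher for 3, beside 7.76% and 9.59% of all tested features. All 6 lower members were let-7 genes (Mirlet7a-1, Mirlet7b, Mirlet7d, Mirlet7f-2, Mirlet7g and Mirlet7i). The 3 higher ones were Mir23a, Mir23b and Mir29c. With library totals or upper-quartile factors 1 of the 25 was higher. Mirlet7i (-2.27, edgeR adjusted p = 1.2e-05) and Mirlet7d (-1.18, edgeR adjusted p = 0.023) were lower, as Mir26b was, and Mir150 (0.77, edgeR adjusted p = 0.093) did not pass.

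The miR-17 cluster, a known MYC target, and its paralogs went the other way from miR-26 between the cell states. Of 15 members, all tested, 14 rose in the proliferating IP and 11 in the proliferating input, with none lower, beside 28.3% and 26% of all tested features that rose. The medians were 1.99 and 1.26, against 0.21 and 0.04 over all tested features. Under 4 other scalings 10 to 14 rose in the IP and 9 to 13 in the input. Mir93, of the cluster in Mcm7, rose by 1.32 in the IP (edgeR adjusted p = 1.2e-06) and by 0.80 in the input (edgeR adjusted p = 0.0017). Mir92-1 rose by 0.94 in both. Mir25 rose by 0.77 in the IP and was at 0.44 in the input (edgeR adjusted p = 0.098). Unlike Mir26b, Mir92-1 was enriched with AGO2 about equally in both states, at 1.60 in proliferating and 1.61 in resting cells, and the 95% interval of its difference was -0.65 to 0.65 (edgeR adjusted p = 0.996). MYC itself is a protein, and neither it nor its mRNA was measured here.

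**Figure D5:**
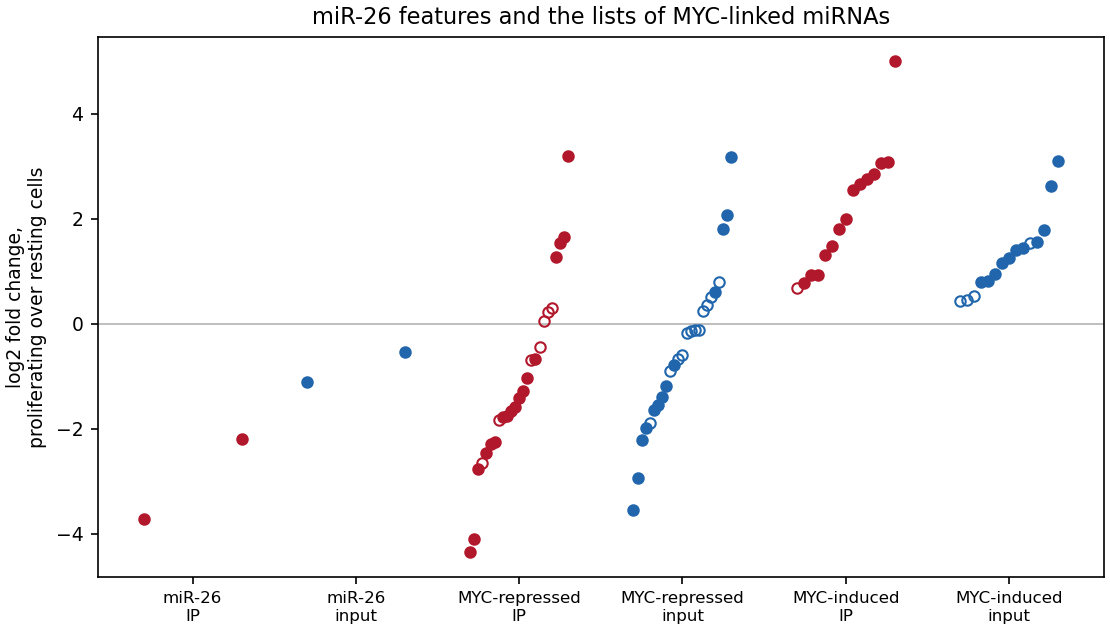
Log2 fold change of proliferating over resting cells in the IP (red) and in the input (blue) for the tested miR-26 features and the tested members of both lists, sorted within each column, with open circles where the adjusted p was not under 0.05. The miR-26 features lie below 0 in both, most MYC-repressed members lie below 0 and every MYC-induced member lies above it.

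miRNAs typical of other cell types also differed between the states. Of 17 listed markers of myeloid, erythroid, endothelial, stromal, epithelial and liver cells, 16 were found by name, 10 were tested, and Mir199a-2 and Mir214 were listed at 0. Their summed level was 3836 and 2328 CPM in the proliferating IPs, 2762 and 3790 CPM in the proliferating inputs, 21154 and 33641 CPM in the resting IPs, and 13211 and 28674 CPM in the resting inputs. Of the 10 tested, 8 fell and 1 rose in the proliferating IP against the resting IP, where 23.7% of all tested features fell and 28.3% rose. In the input 4 fell and 2 rose, beside 23.3% and 26% of all tested features, and with upper-quartile factors none rose there. In the resting IP against the resting input 4 rose and none fell, beside 13.2% and 15.5% of all tested features. The difference between cell states was lower for 4 of the 10 (Mir223, Mir200b, Mir200c and Mir122) and higher for 1 (Mir126a). Over all tested features these calls were 7.76% and 9.59%. The median difference was -1.55 for the 10 markers, against 0.17 over all tested features. The myeloid Mir223 was the most abundant of the listed markers in the resting libraries, with 18234 and 31056 CPM in the resting IPs, against 11590 and 27131 CPM in the resting inputs. Within the resting IPs the marker sum, most of it Mir223, was higher in replicate 2. Mir26b was higher in replicate 1, and so was the epithelial sum given below. In the resting inputs the marker sum and Mir26b (26414 and 28026 CPM) were both higher in replicate 2. The epithelial sum was higher in replicate 1 there as well. Mir200b and Mir200c, named above for their likeness to Mir26b, are 2 of the 5 epithelial markers, which summed to 514 and 444 CPM in the proliferating IPs, 457 and 569 CPM in the proliferating inputs, 2620 and 2081 CPM in the resting IPs, and 1294 and 1034 CPM in the resting inputs. Of the T cell markers Mir181a-1 and Mir181a-2, which B cells also use, Mir181a-2 fell in the proliferating input and neither passed in the IP. Mir181a-1 is also on the B cell list above. The part of these cells in the miR-26 results was not tested.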

How the data were processed

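Small RNA libraries (QIAseq miRNA kit, single-end Illumina reads) were made from input RNA and anti-HA AGO2 IPs, per the labels' protocols. STAR 2.7.9a, SAMtools 1.15 and mm10 are named in the submitters' processing notes. What the authors deposited are raw counts for each Ensembl miRNA gene, from deduplicated alignments per the file headers. No counter, strand setting or multi-mapping setting is given in the sources used here. Features were named by exact coordinates from RefSeq (GRCm38.p6), which named 1179 of 2202. Groups and replicate numbers came from titles.

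Features were kept by filterByExpr (minimum count 10), which left 219. edgeR 4.0.16 (R 4.3.3) fitted TMM factors (0.797 to 1.34) and a quasi-likelihood model of 4 groups to all 8 libraries, with 4 residual and 36.6 prior degrees of freedom, so most of each spread estimate is shared over features. Tests were 2-sided with Benjamini-Hochberg adjustment over all 219 features in each of 5 contrasts, and the threshold was an adjusted p of 0.05. SE is the absolute log2 fold change over the square root of F. The fit was tested on simulated data. Counts of the 2 libraries of a group differed beyond sampling noise (chi-square over its degrees of freedom at least 8.56). Library totals put the floor of 3 counts at 1.78 to 14.1 CPM of a library's total. Features named are the miR-26 genes, the 5 most correlated with Mir26b, and the most abundant members of 2 lists (5 and 3), with Mir223 as marker. Members and lists were chosen with earlier results of these data known. Alternatives were other scalings, filters, DESeq2 1.42.0, limma 3.58.1, subsets of libraries and a replicate block. List counts under other scalings were added after seeing the data.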

Additional observations from a re-analysis of the deposited data

Results flagged for a closer look

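The IP to input change differed between the cell states by the interaction term for both tested miR-26 features, at -1.65 on the log2 scale for Mir26b and -2.61 for Mir26a-2 (proliferating minus resting cells). Both passed in edgeR's test (adjusted p = 2.8e-04 and 0.0031). The cause was not tested. Groups of 2 libraries are too small for a test of single outlying libraries.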

How the results depend on the processing

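For Mir26b and Mir26a-2, the rise in the resting IP over input, the fall in the proliferating against the resting IP and the difference between cell states kept direction and passed under each alternative run. In the proliferating IP over input Mir26b turned to -0.45 with library totals, -0.18 without proliferating input replicate 2 and -0.11 without resting input replicate 1 (-0.18 to 0.24 with 1 library left out, none passing), and Mir26a-2 passed with library totals (-1.38). In the proliferating against the resting input, Mir26b no longer passed with library totals (-0.18), with the replicate block (-0.54), with factors computed without small RNA overlaps and dominant features (-0.45) or with limma voom (-0.54), and ranged from -0.76 to -0.40 with 1 library left out, losing the call without any of the 4 input libraries. Mir26a-2 no longer passed there with library totals (-0.75), no filter on low counts (-1.10), input libraries alone (-0.91), the replicate block (-1.09), those other factors (-1.02) or limma voom (-1.04), and ranged from -1.50 to -0.72, losing the call without proliferating input replicate 1 (-1.16) or 2 (-0.92) or resting input replicate 1 (-0.72). The cause was not tested.

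Features called in proliferating IP over input (59) were 30 to 63 with 1 library left out, with 37 without proliferating IP replicate 2 and 33 and 30 without proliferating input replicate 1 and 2. Those called for the difference (38) were 22 with upper-quartile factors, 25 with DESeq2 size factors and 11 to 46 with 1 library left out, with 11 and 13 without proliferating input replicate 1 and 2 and 25 without resting input replicate 1. Library totals moved the median of all features by -0.61 in proliferating IP over input, -0.24 in resting IP over input, 0.36 in the input and -0.36 in the difference, and upper-quartile factors moved it by -0.67 in the IP. Calls split into 29 higher and 30 lower in proliferating IP over input, against 16 and 60 with library totals, and into 62 and 52 in the IP, against 38 and 75 with upper-quartile factors. In the input they split into 57 and 51, against 75 and 37 with library totals and 39 and 59 with upper-quartile factors. In resting IP over input they split into 29 and 34, against 33 and 23 with upper-quartile factors. The difference split into 21 and 17, against 7 and 20 with library totals and 7 and 15 with upper-quartile factors, and no feature was called higher without proliferating input replicate 1 (0 and 11) or 2 (0 and 13). The miR-26 share without features over 10% of any library was 5.20% in the proliferating IP, 5.81% in the proliferating input, 17.2% in the resting IP and 5.87% in the resting input, and with named features alone it was 2.55% in the proliferating input.

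Deviations of same-numbered libraries correlated at -0.12 to 0.18, so the numbers were not taken to pair the libraries, and the replicate block changed no call of these features other than those in the input. At 0 to 9 counts Mir26a-1 is too shallow for a test.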
